A study of Arabidopsis thaliana with 6 samples.

Results

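The Arabidopsis thaliana genes that lie on the chloroplast's own DNA were measured in cells collected as male meiocytes, the anther cells that enter meiosis. They were taken as every gene whose identifier starts with ATCG, which gave 88 of the 27655 genes in each file. Plants of knu-2 are mutant for KNUCKLES (KNU), a gene for a zinc finger protein, and were compared with the laboratory strain Ler (Landsberg erecta), with 3 libraries of each genotype. The cells were pressed out of anthers of stages 4 to 7 and no sort is named in the labels, so other anther cells may be present, and the labels do not say whether the replicates came from separate plants.

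Chloroplast DNA encodes core subunits of both photosystems, the cytochrome b6f complex, the ATP synthase, the NDH complex and the large subunit of Rubisco, together with plastid ribosomal proteins, tRNAs and rRNAs. It also encodes the core of a bacterial-type RNA polymerase (rpoA, rpoB, rpoC1 and rpoC2), which works with nuclear-encoded sigma factors and transcribes many photosynthesis genes, whereas a nuclear-encoded phage-type polymerase transcribes rpoB and other housekeeping genes. Chloroplast mRNAs mostly lack the stable poly(A) tail of nuclear mRNAs, and tails added in the plastid mark RNA for decay. Since the libraries were made from RNA captured on oligo-T beads, the values below are those of chloroplast RNA that came through this capture and do not give its abundance in the cell.

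The files give identifiers and lengths without gene names. Names were therefore assigned by exact coding length against the 85 chloroplast coding genes of the RefSeq annotation of TAIR10.1. A single gene had the length of 57 identifiers, and 8 more were copies of genes present in 2 copies. Another 14 identifiers had a length that several genes share, and these are written with all the candidates (petD/rpl22). The other 9 had no match and keep their identifier only. Of the 88 genes, 67 could be placed in a functional class. A group of 14 identifiers in same-length pairs, which include copies of the inverted repeat, held 17 counts over all 6 libraries, and 7 of the 88 genes had no count in any library.

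KNU itself was at 13.8, 7.49 and 4.62 scaled CPM (CPM taken on library totals multiplied by their TMM factor) in knu-2 replicates 1, 2 and 3, against 75.1, 68.1 and 87.2 scaled CPM in Ler replicates 1, 2 and 3. The genotypes did not overlap (log2 fold change -3.16, SE 0.36, edgeR adjusted p = 0.000128). Library totals were 18070435 to 23199970 counts in knu-2 and 19827980 to 27995200 counts in Ler. Of all 18422 genes tested, 8856 or 48.1% were called at an adjusted p under 0.05. Markers of other cells moved with genotype: the summed level of 14 tapetum genes, which mark the nurse cell layer around the meiocytes, was 1887 to 2652 scaled CPM in knu-2 and 394 to 539 scaled CPM in Ler. The summed level of 10 meiocyte genes was 1066 to 1814 scaled CPM in knu-2 and 3895 to 4851 scaled CPM in Ler. Of the single genes, 9 of 11 tapetum genes tested were called higher and 9 of 10 meiocyte genes lower, against 23.6% and 24.4% of all genes tested. DYT1 of the tapetum was called the other way (log2 fold change -1.18, edgeR adjusted p = 0.0339). So was REC8 of meiocytes (log2 fold change 0.49, edgeR adjusted p = 0.0317), and LAP6 of the tapetum was not called. The smallest p in each list belonged to CYP704B1, ACOS5, AMS and TKPR1 of the tapetum (log2 fold changes 2.105 to 2.85) and to MND1, ASY1, SPO11-1 and OSD1 of meiocytes (log2 fold changes -3.52 to -2.37). The part of these differences in the chloroplast values was not tested, and in bulk samples fewer cells of a type and less RNA per cell cannot be told apart.

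Chloroplast genes took a very small part of every library, and the knu-2 libraries differed far more from each other than the Ler libraries did. The 88 genes held 4214, 11725 and 8978 counts in knu-2 replicates 1 to 3, and 7979, 8849 and 6464 counts in Ler replicates 1 to 3. On the scaled level this was 215, 536 and 364 CPM in knu-2 and 351, 350 and 357 CPM in Ler. The Ler libraries lay within a few CPM of each other, and the knu-2 libraries lay on both sides of them. The means were 372 ± 160 scaled CPM in knu-2 and 353 ± 4.02 scaled CPM in Ler (SD, n = 3 each), with p = 0.7 in an exact two-sided permutation test, whose smallest possible p for 3 against 3 is 0.1.

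Genes of the mitochondrial genome, whose RNA passes through the same capture, gave 269, 842 and 212 scaled CPM in knu-2 and 218, 263 and 184 scaled CPM in Ler. The second knu-2 library was the highest of the 6 for both organelles. The ratio of chloroplast to mitochondrial counts was 0.799, 0.636 and 1.72 in knu-2 and 1.61, 1.33 and 1.94 in Ler, with overlapping genotypes (exact two-sided permutation test, p = 0.3).

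**Figure D1:**
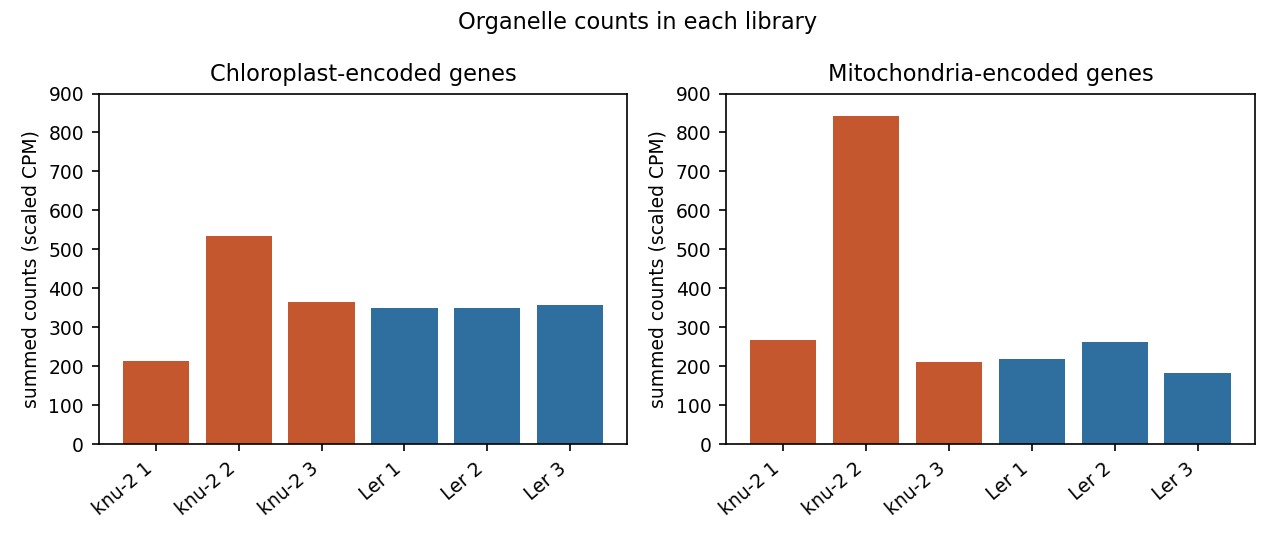
Summed scaled CPM (y axis) of the chloroplast-encoded genes, left, and of the mitochondria-encoded genes, right, in each library (bars; knu-2 orange, Ler blue). The chloroplast sum was 215 to 536 in knu-2 and 350 to 357 in Ler, and knu-2 replicate 2 is the tallest bar in both panels.

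The composition of the chloroplast counts varied in the same libraries. The genes of the photosystems, the cytochrome b6f complex and Rubisco together made up 22.2%, 32.9% and 5.25% of the chloroplast counts in knu-2 replicates 1, 2 and 3, against 7.36%, 7.2% and 5.48% in Ler replicates 1, 2 and 3. The first and second knu-2 libraries were above all Ler libraries and the third was below all of them. The means were 20.1 ± 13.9% in knu-2 and 6.68 ± 1.04% in Ler (SD, n = 3 each; exact two-sided permutation test, p = 0.4).

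The polymerase genes made up 31.4%, 15.1% and 18.8% of the chloroplast counts in knu-2, against 35.7%, 36.4% and 29.3% in Ler. The first knu-2 library lay within the range of Ler and the other knu-2 libraries below it (means 21.7 ± 8.54% in knu-2 and 33.8 ± 3.89% in Ler, SD, n = 3 each, exact two-sided permutation test, p = 0.2). On the library scale the summed polymerase genes were at 67.4, 80.6 and 68.5 scaled CPM in knu-2 and 125, 127 and 105 scaled CPM in Ler, without overlap (exact two-sided permutation test, p = 0.1, the smallest it can give, and 0.629 after Benjamini-Hochberg adjustment over the 11 classes). Of the polymerase genes taken singly, only rpoB was without overlap. NDH genes took 6.24%, 4.70% and 18.8% in knu-2 and 15.6%, 15.3% and 19.8% in Ler, so that the third knu-2 library again lay among the Ler libraries. For the shares of the 11 classes the exact permutation p was between 0.2 and 1, and between 0.489 and 1 after Benjamini-Hochberg adjustment over them. Counting error was small beside these differences: the 95% Clopper-Pearson intervals of the class shares reached at most 1.43 percentage points to either side, which covers counting error only.

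**Figure D2:**
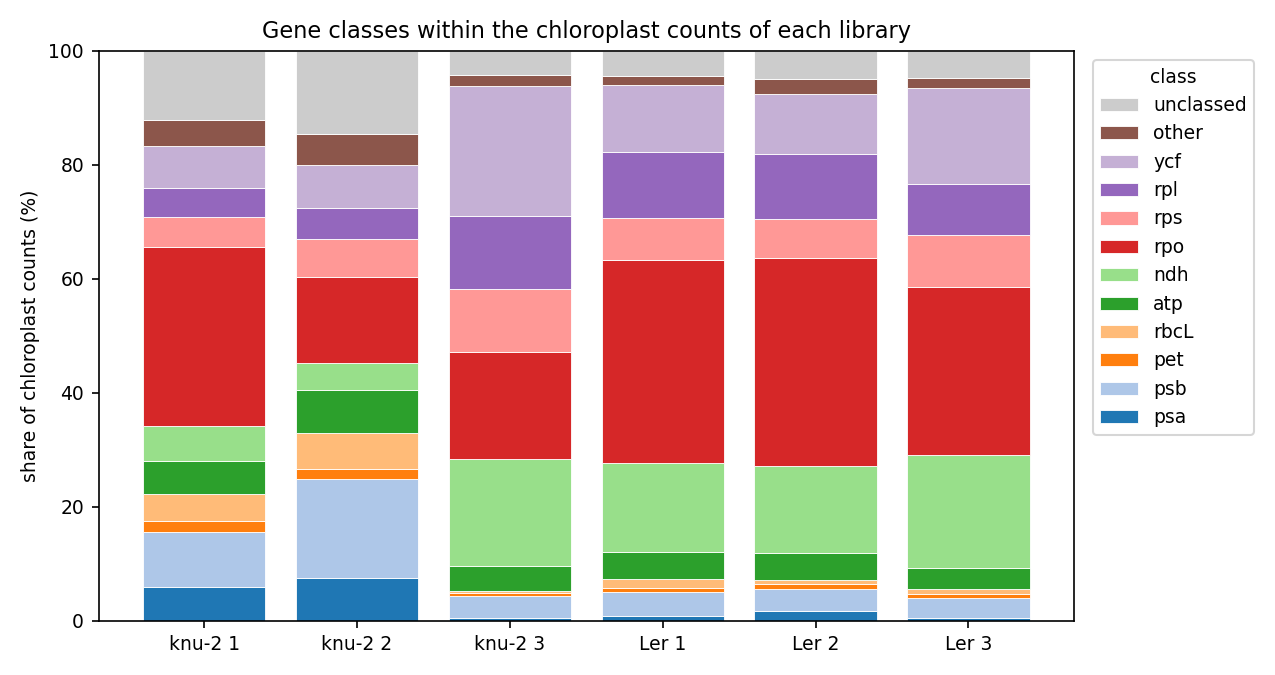
Share of the chloroplast counts (y axis, %) held by each gene class in each library, stacked to 100%; psa and psb are photosystem I and II, pet cytochrome b6f, atp ATP synthase, ndh the NDH complex, rpo the polymerase, rps and rpl ribosomal proteins. The polymerase class takes 15.1% to 31.4% in knu-2 and 29.3% to 36.4% in Ler, and the photosystem II class takes 17.4% in knu-2 replicate 2 against 3.59% to 4.2% in Ler.

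Libraries were also compared by how much of their chloroplast counts fell on the same genes. The third knu-2 library shared 74.5% to 83.8% of its composition with the Ler libraries, but 49.0% and 50.7% with the other knu-2 libraries. The first and second knu-2 libraries shared 70.8% with each other, and Ler libraries shared 82.7% to 90.6%. Over all genes tested the third knu-2 library had a Spearman rho of 0.961 and 0.956 with the other knu-2 libraries and of 0.842 to 0.852 with the Ler libraries, so it stood with its genotype across the genome and nearer to Ler in its chloroplast genes. These correlations are across genes, which are not independent replicates, and describe the libraries only.

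In the fit across all genes, 60 of the 88 chloroplast genes passed the filter on low counts. The 28 left out had 0 to 130 counts each over the 6 libraries. At an adjusted p under 0.05, 8 of the 60 were called, or 13.3%, against 48.1% of all genes tested: 7 were higher in knu-2 (23.6% of all genes were) and 1 was lower (24.4%). The standard errors were large, with a median of 0.87 on the log2 scale, against 0.27 over all genes. The median log2 fold change of the 60 was 0.99, against 0.10 over all genes, and a gene that passed the filter only through the libraries where it is high had to differ, so this median is a description. Scaled CPM did not overlap between the genotypes in 6 genes higher in knu-2 and 1 lower, against 29.8% and 29.3% of all genes tested. Of the 6, psbJ, ndhF, ATCG00730 and ATCG00360 were low in Ler and passed the filter only through the knu-2 libraries. This count is therefore a description too, as are the calls of psbJ, ATCG00730 and ATCG00360 among the 7. All 7 rises lost their call without knu-2 replicate 2, which was the highest of the 6 libraries in 37 of the 60 genes and in all 7 called higher. Without it 0 chloroplast genes were called higher and 1 lower, against 21.4% and 23.1% of all genes (44.5% in either direction). In that edgeR fit 3 chloroplast genes had an unadjusted p under 0.05, 2 of them higher, and the median log2 fold change was 0.11 over 64 genes tested, against 0.05 over all genes. The fold changes of the 7 genes stayed positive without it. On the log2 scale they were 3.55 for ATCG00730 (adjusted p = 0.0753), 2.72 for ATCG00360 (adjusted p = 0.114), 1.58 for psbC, 1.32 for psbJ, 1.29 for ATCG00020, 1.24 for atpA and 0.83 for ATCG00040 in this edgeR fit.

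The calls also moved with other libraries and with the method. Without knu-2 replicate 3, 17 chloroplast genes were called higher and 5 lower, against 21.6% and 23.8% of all genes (45.3% in either direction), and the median log2 fold change was 1.32 over 65 genes tested, against 0.08 over all genes. Without knu-2 replicate 1, 11 were called higher, against 20.9% of all genes. Without Ler replicate 1 the number was 2 (17.7% of all genes), without Ler replicate 2 it was 3 (18.6%) and without Ler replicate 3 it was 2 (18.8%). DESeq2 called 14 higher and 1 lower, against 22.5% and 26.6% of all genes (49.2% in either direction), and limma-voom called 1 higher, against 23.4% of all genes. With no scaling beyond library totals 11 were called higher and 1 lower, against 33.4% and 19.0% of all genes (52.4% in either direction). That setting raised the median log2 fold change of all genes by 0.32.

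**Figure D3:**
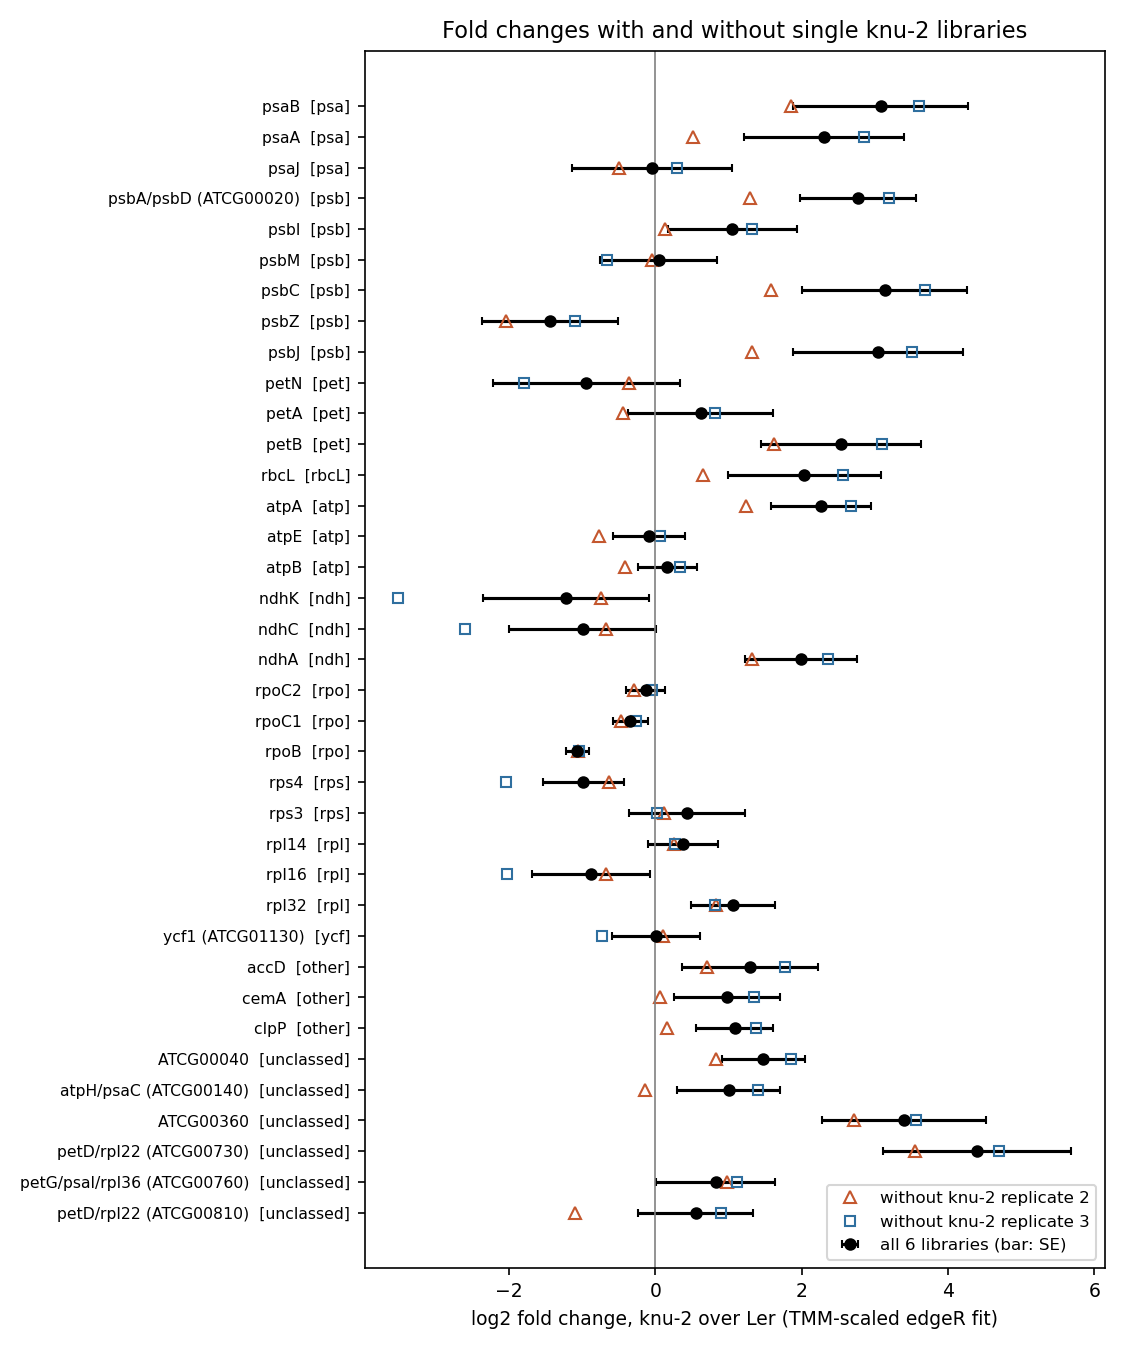
Log2 fold change of knu-2 over Ler (x axis) for 37 named chloroplast genes (y axis, by class), from all 6 libraries with its SE (black points and bars) and without knu-2 replicate 2 (triangles) or 3 (squares). The points of rpoB lie together near -1.07, while many photosystem genes move towards 0 without replicate 2.

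The polymerase genes held the one chloroplast gene called lower, rpoB, which encodes the beta subunit of the plastid polymerase. Its level was 37.0, 35.1 and 33.6 scaled CPM in knu-2, against 72.2, 80.9 and 68.6 scaled CPM in Ler. All knu-2 libraries lay below all Ler libraries, and within each genotype the values were close. This was 2.1-fold lower in knu-2 (log2 fold change -1.07, SE 0.16, edgeR adjusted p = 0.00026), and the call held in each of the 6 fits that left out a library. It was lost when each library was scaled to its chloroplast total (log2 fold change -0.93, SE 0.52, adjusted p = 0.197): rpoB then made up 17.2%, 6.55% and 9.23% of the chloroplast counts in knu-2, against 20.6%, 23.1% and 19.2% in Ler. Every knu-2 share was still below every Ler share.

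In the reference, rpoC1 and rpoC2, which encode the beta prime and beta double prime subunits, follow rpoB on the same strand. For rpoC1 the level was 14.7, 18.2 and 13.9 scaled CPM in knu-2, against 22.1, 21.9 and 15.4 scaled CPM in Ler (log2 fold change -0.34, SE 0.24, adjusted p = 0.265). For rpoC2 it was 14.7, 19.0 and 13.7 scaled CPM in knu-2, against 22.6, 16.7 and 12.8 scaled CPM in Ler (log2 fold change -0.13, SE 0.27, adjusted p = 0.713). The genotypes overlapped for both genes, and no difference between the genes' fold changes was tested. The alpha subunit gene rpoA, named after its values were seen, lies apart from them and had 0.969, 8.31 and 7.30 scaled CPM in knu-2, against 8.4, 7.75 and 7.96 scaled CPM in Ler. Its first knu-2 library was far below the other 5.

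**Figure D4:**
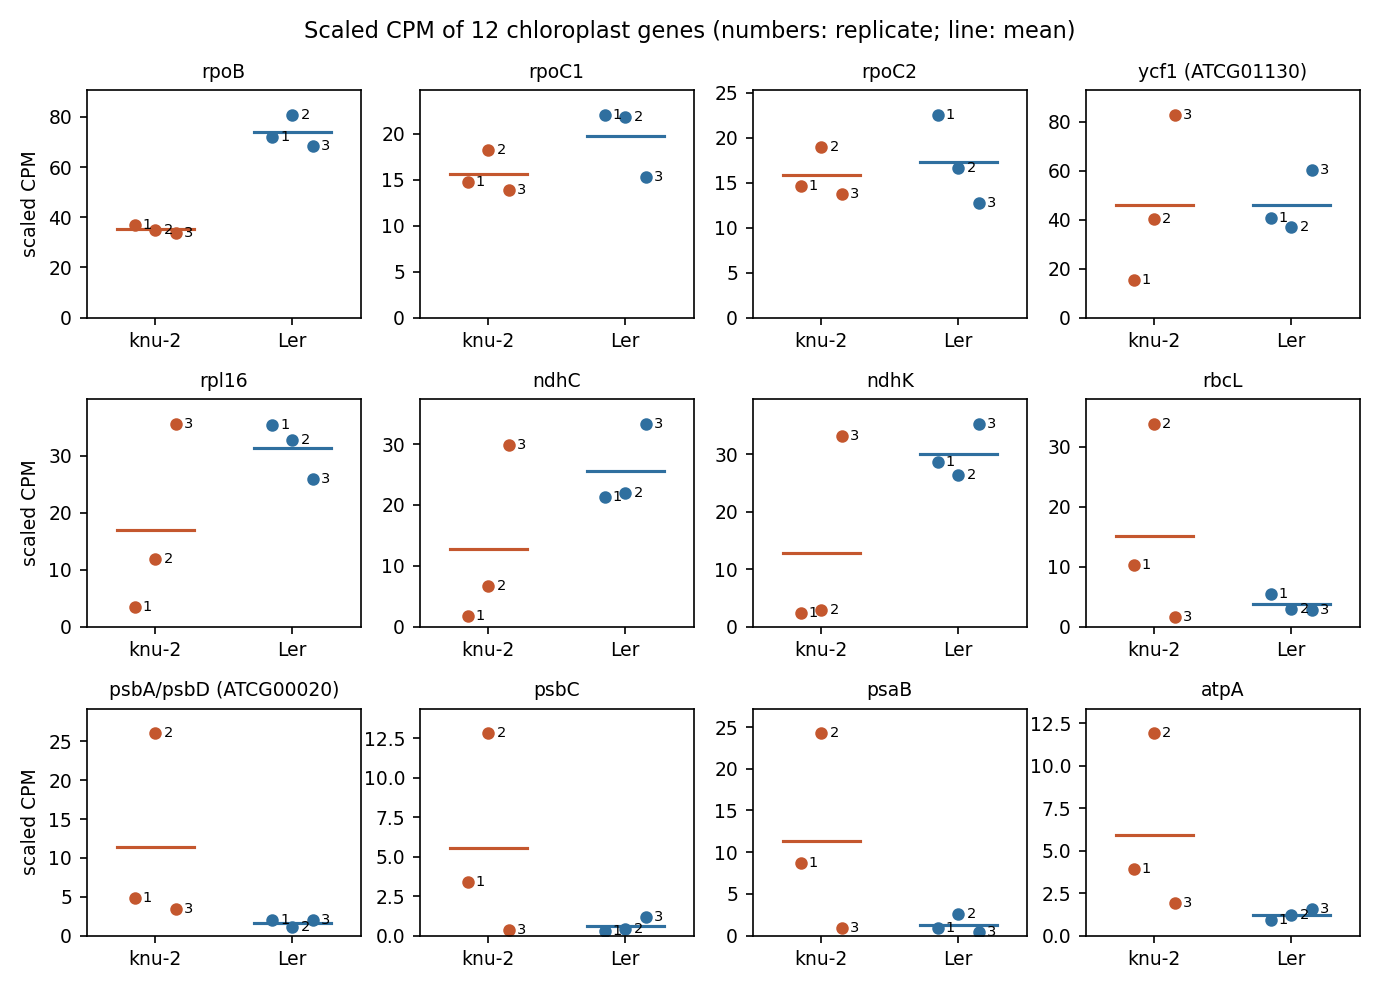
Scaled CPM (y axis, from 0) of 12 chloroplast genes in knu-2 (orange) and Ler (blue); each point is a library with its replicate number and the line is the mean. For rpoB the knu-2 points lie at 33.6 to 37.0, all below Ler at 68.6 to 80.9, whereas for psaB and rbcL knu-2 replicate 2 lies far above the rest.

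Photosystem II held 3 of the 7 genes called higher, among 11 of its genes tested, where 23.6% of all genes tested were called higher. ATCG00020, whose length is that of psbA and of psbD, both reaction centre subunits, had 4.79, 26.1 and 3.41 scaled CPM in knu-2, against 1.98, 1.07 and 1.99 scaled CPM in Ler. All knu-2 libraries were above all Ler libraries and the second was several times the others (log2 fold change 2.77, SE 0.80, adjusted p = 0.0206). The gene psbC, for an inner antenna protein, had 3.42, 12.8 and 0.365 scaled CPM in knu-2, against 0.308, 0.435 and 1.16 scaled CPM in Ler, where the third knu-2 library lay within Ler (log2 fold change 3.14, SE 1.13, adjusted p = 0.0461). The small subunit gene psbJ had 0.816, 5.03 and 0.446 scaled CPM in knu-2, against 0.220, 0.356 and 0.166 scaled CPM in Ler, without overlap (log2 fold change 3.04, SE 1.16, adjusted p = 0.0489). This gene passed the filter on low counts only through the knu-2 libraries, so its call and lack of overlap are descriptions. In the reference psbC overlaps psbD, so reads of these genes may be shared. The identifiers of uniquely named genes run in the reference's gene order. By that order ATCG00020, which precedes rps16, stands where the reference has psbA, which does not overlap psbC, while psbD lies between psbM and psbC. Without knu-2 replicate 2 none of the 3 was called. Of the small subunit genes that were not called, psbM had 0.306, 3.70 and 5.76 scaled CPM in knu-2, against 2.46, 2.65 and 4.42 scaled CPM in Ler (adjusted p = 0.973). For psbZ the values were 1.02, 1.96 and 0.527 scaled CPM in knu-2, against 5.63, 3.56 and 0.332 scaled CPM in Ler (adjusted p = 0.225).

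In photosystem I none of the 3 genes tested was called. The reaction centre gene psaB had 8.67, 24.3 and 0.973 scaled CPM in knu-2, against 0.879, 2.57 and 0.497 scaled CPM in Ler (log2 fold change 3.08, SE 1.195, adjusted p = 0.0783). Its partner psaA, which lies beside it, had 3.01, 14.2 and 0.365 scaled CPM in knu-2, against 0.923, 1.82 and 0.774 scaled CPM in Ler (log2 fold change 2.30, SE 1.09, adjusted p = 0.117). In both genes the first and second knu-2 libraries exceeded Ler and the third did not. The Rubisco large subunit gene rbcL had 10.2, 33.8 and 1.54 scaled CPM in knu-2, against 5.45, 2.92 and 2.71 scaled CPM in Ler, with the same order of the knu-2 libraries (log2 fold change 2.03, SE 1.05, adjusted p = 0.167). The cytochrome b6 gene petB had 3.26, 6.17 and 0.122 scaled CPM in knu-2, against 0.748, 0.435 and 0.442 scaled CPM in Ler, the third knu-2 library being the lowest of all (adjusted p = 0.0761).

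The remaining calls were a gene of the ATP synthase and genes whose class their length did not settle. In the order of identifiers, ATCG00730 stands where the reference has petD, ATCG00360 where it has ycf3 and ATCG00040 where it has matK. The alpha subunit gene atpA had 3.93, 11.9 and 1.91 scaled CPM in knu-2, against 0.923, 1.22 and 1.55 scaled CPM in Ler, without overlap (log2 fold change 2.26, SE 0.68, adjusted p = 0.0173). By contrast the beta and epsilon subunit genes, which overlap in the reference, were not called: atpB had 4.95, 14.0 and 6.29 scaled CPM in knu-2, against 8.57, 7.82 and 6.13 scaled CPM in Ler. ATCG00730 (petD/rpl22) had 1.28, 4.02 and 1.095 scaled CPM in knu-2, against 0, 0.079 and 0.221 scaled CPM in Ler, without overlap (log2 fold change 4.397, SE 1.29, adjusted p = 0.0148). ATCG00360 had 0.918, 3.24 and 1.38 scaled CPM in knu-2, against 0.044, 0.198 and 0.276 scaled CPM in Ler, also without overlap (adjusted p = 0.0266). ATCG00730 and ATCG00360 passed the filter on low counts only through the knu-2 libraries, so their calls and lack of overlap are descriptions. ATCG00040 had 7.04, 13.5 and 3.00 scaled CPM in knu-2, against 1.54, 3.32 and 3.59 scaled CPM in Ler, and here the genotypes overlapped (adjusted p = 0.0493). With 3 counts as the limit, a count of 0 allows a level of up to 0.119 to 0.166 scaled CPM, depending on the library.

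The NDH complex passes electrons around photosystem I, and 6 of its genes were tested with none called. Its subunit gene ndhC had 1.73, 6.62 and 29.8 scaled CPM in knu-2, against 21.3, 21.9 and 33.3 scaled CPM in Ler (log2 fold change -0.996, SE 1.005, adjusted p = 0.473). The neighbouring ndhK had 2.45, 2.83 and 33.2 scaled CPM in knu-2, against 28.6, 26.5 and 35.3 scaled CPM in Ler (log2 fold change -1.22, SE 1.14, adjusted p = 0.438). In both genes the first and second knu-2 libraries lay far below Ler and the third lay among the Ler libraries, and both were called lower when it was left out. The gene ndhF, named after its values were seen, had 1.68, 1.51 and 1.26 scaled CPM in knu-2, against 0.352, 0.316 and 0.276 scaled CPM in Ler. Its genotypes did not overlap, yet it was not called at these low counts (log2 fold change 2.21, SE 0.96, adjusted p = 0.0798). It passed the filter on low counts only through the knu-2 libraries, so the lack of overlap is a description. In the reference ndhF overlaps a ycf1 gene on the opposite strand, which by the order of identifiers is ATCG01000 and not ATCG01130. The subunit gene ndhA had 3.21, 6.62 and 1.5 scaled CPM in knu-2, against 0.484, 1.62 and 0.718 scaled CPM in Ler (log2 fold change 1.99, SE 0.77, adjusted p = 0.0508), with the third knu-2 library within Ler.

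Among ribosomal protein genes none was called of 8 rps and 4 rpl genes tested. The large subunit gene rpl16 had 3.42, 12 and 35.6 scaled CPM in knu-2, against 35.5, 32.8 and 26.0 scaled CPM in Ler (log2 fold change -0.88, SE 0.80, adjusted p = 0.424), with the third knu-2 library the highest of the 6. The small subunit gene rps4 had 1.99, 1.69 and 7.71 scaled CPM in knu-2, against 7.04, 7.11 and 8.56 scaled CPM in Ler (adjusted p = 0.165). Both were called lower without knu-2 replicate 3. Next to rpl16, rps3 had 1.38, 16.6 and 17.5 scaled CPM in knu-2, against 8.09, 7.59 and 10.8 scaled CPM in Ler, so that here the first knu-2 library alone lay below Ler. The large subunit gene rpl32 had 1.73, 5.57 and 5.56 scaled CPM in knu-2, against 1.85, 2.33 and 1.99 scaled CPM in Ler (adjusted p = 0.150), and rpl14 had an adjusted p of 0.550.

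Outside these complexes none of the genes tested for ycf1, clpP, accD and cemA was called. The gene ycf1 (ATCG01130), which encodes a protein of the chloroplast's import machinery, had 15.5, 40.2 and 82.8 scaled CPM in knu-2, against 40.9, 36.9 and 60.4 scaled CPM in Ler (log2 fold change 0.01, SE 0.60, adjusted p = 0.994), and its sign turned with the replicate block, DESeq2, limma-voom and the chloroplast scaling. It took 22.8% of the chloroplast counts of knu-2 replicate 3. The protease subunit gene clpP had 4.18, 16.2 and 4.54 scaled CPM in knu-2, against 3.39, 3.91 and 4.48 scaled CPM in Ler (adjusted p = 0.112), with the second knu-2 library apart from the rest. The gene accD, for a subunit of acetyl-CoA carboxylase, had 2.86, 4.203 and 0.527 scaled CPM in knu-2, against 0.308, 1.78 and 0.995 scaled CPM in Ler (adjusted p = 0.279). The envelope protein gene cemA had 2.60, 7.72 and 1.62 scaled CPM in knu-2, against 2.24, 3.04 and 0.718 scaled CPM in Ler (adjusted p = 0.292). The genotypes overlapped for both.

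Per kilobase of the deposited length, rpl16 and ndhC held the first 2 ranks in each Ler library and in knu-2 replicate 3, but not in the other knu-2 libraries. The level of rpl16 was 8.38, 29.3 and 87.4 CPM per kb in knu-2, against 87.1, 80.4 and 63.8 CPM per kb in Ler, and it ranked 6, 9 and 1 in the knu-2 libraries. The level of ndhC was 4.78, 18.2 and 82.1 CPM per kb in knu-2, against 58.7, 60.3 and 91.8 CPM per kb in Ler, and it ranked 22, 22 and 2 in the knu-2 libraries. Without knu-2 replicate 3 the knu-2 means were 18.9 CPM per kb for rpl16 and 11.5 CPM per kb for ndhC, at ranks 8 and 21. The level of rpoB was 11.5, 10.9 and 10.4 CPM per kb in knu-2, against 22.4, 25.1 and 21.3 CPM per kb in Ler. Its rank was 2, 31 and 12 in the knu-2 libraries, although its level was close in all of them, and 5 or 6 in the Ler libraries. Since oligo-T can bind runs of A inside an RNA, the longest run of A in the reference gene was set beside the counts per kb over 57 uniquely named genes: Spearman's rho was 0.05, -0.35 and 0.11 in knu-2 and -0.01, 0.04 and 0.03 in Ler. These points share their library and base composition.

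**Figure D5:**
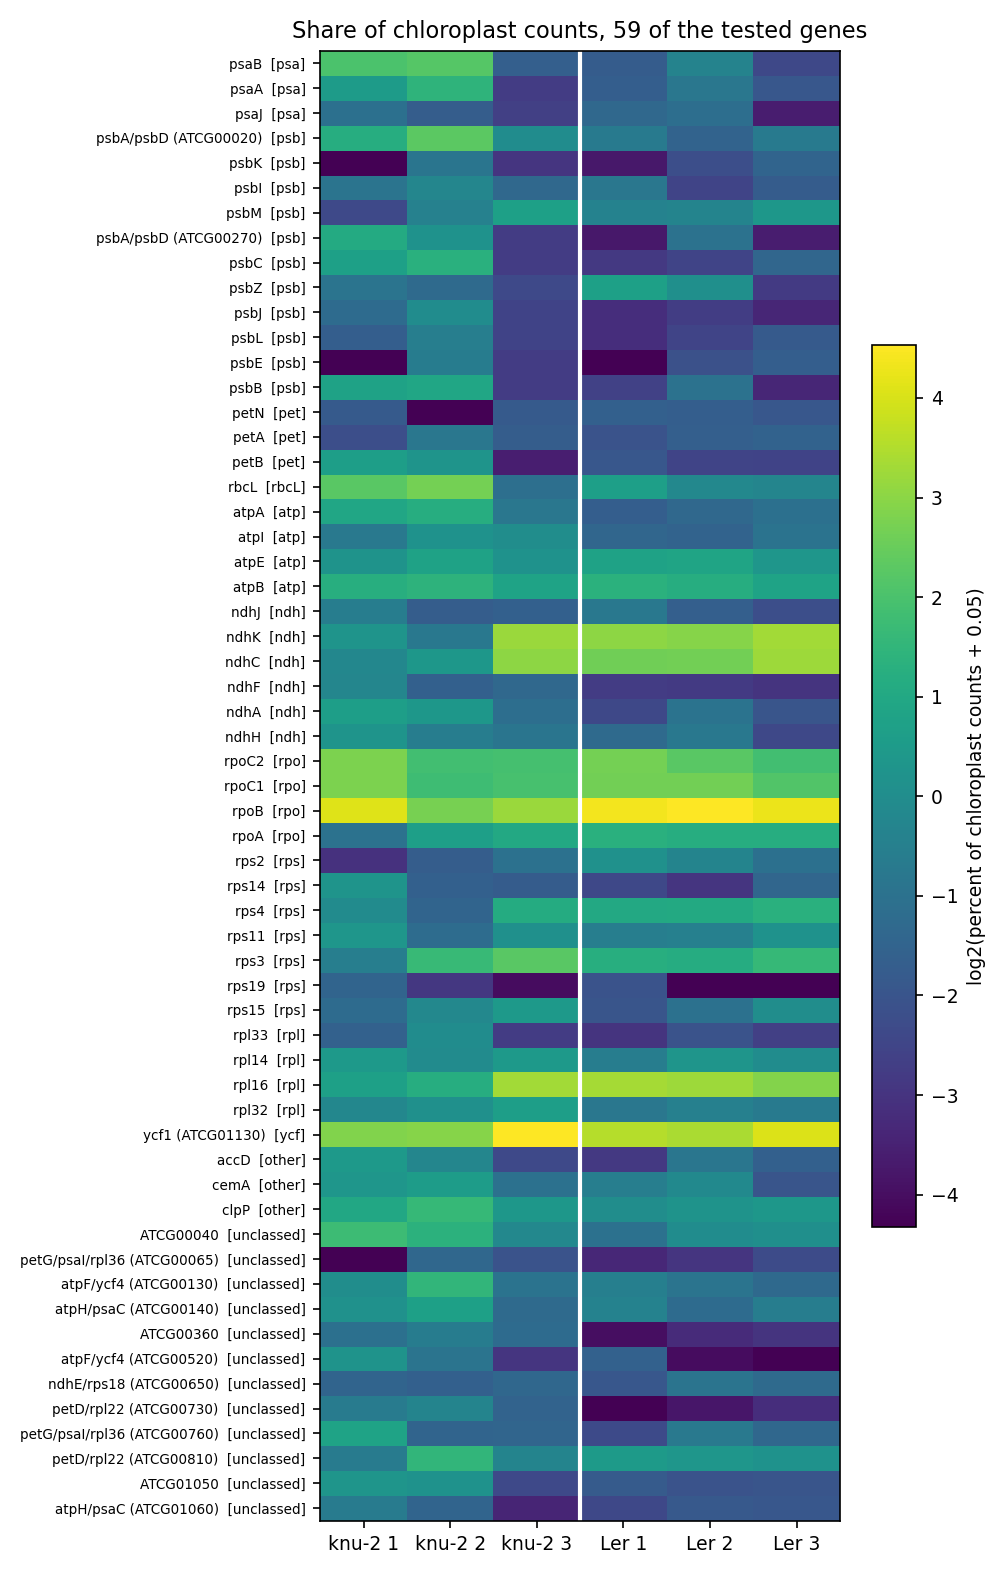
Log2 of the share of chloroplast counts (percent plus 0.05; colour) for 59 of the 60 genes tested (rows, by class) in each library (columns, knu-2 left of the white line and Ler right). The columns of Ler resemble each other and that of knu-2 replicate 3, which shares 74.5% to 83.8% of its composition with them.

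Scaled to the chloroplast total of each library, 9 genes were called higher and 0 lower in the edgeR fit, against 11.1% and 8.93% of all genes tested under this scaling (20.0% in either direction). At an unadjusted p under 0.05, 15 were higher and 2 lower. This scaling moved the median log2 fold change of all genes to 0.20. Among the genes called were psaB (log2 fold change 2.95, SE 0.64, adjusted p = 0.000127) and rbcL (log2 fold change 1.86, SE 0.56, adjusted p = 0.008), which were not called on the library scale. Under this scaling rpoB was no longer called, and the genes called were all of photosystems, Rubisco, the ATP synthase or petD/rpl22.

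Of 44 nuclear photosynthesis genes 1 was called higher and 0 lower in the edgeR fit, against 23.6% and 24.4% of all genes tested, and 4 had an unadjusted p under 0.05. The counts from DESeq2 and from limma-voom were also 1 and 0. That gene, PSBX, a small photosystem II subunit, was at 87.5, 132 and 91.5 scaled CPM in knu-2, against 66.2, 77.1 and 62.7 scaled CPM in Ler (log2 fold change 0.59, SE 0.19, adjusted p = 0.0246). The next by p were PSAG (log2 fold change 0.54, adjusted p = 0.0596), PSAH1 (0.59, adjusted p = 0.0621) and PSAD1 (0.58, adjusted p = 0.0629), all photosystem I subunits, and none was called. The list's median log2 fold change was 0.24, against 0.10 over all genes. Their summed level was 2973, 6419 and 3828 scaled CPM in knu-2, against 3701, 4547 and 3489 scaled CPM in Ler, again highest in knu-2 replicate 2.

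Of 20 nuclear genes that act on plastid transcription 5 were called higher and 5 lower, a share near that of all genes tested (23.6% and 24.4%), around a list median of 0.35 on the log2 scale, and the counts were 5 and 5 in each fit that left out a library. RPOTP (named SCA3 in the reference), the phage-type plastid polymerase, was at 64.7, 56.1 and 72.8 scaled CPM in knu-2, against 16.3, 15.6 and 23.9 scaled CPM in Ler (log2 fold change 1.80, SE 0.21). PAP2 (PTAC2), which associates with the bacterial-type polymerase, was at 24.7, 21.7 and 17.0 scaled CPM in knu-2, against 101, 83.5 and 79.2 scaled CPM in Ler (log2 fold change -2.06, SE 0.20). PAP6 (FLN1), another such protein, had a log2 fold change of -2.17 (SE 0.21), and PAP8 (PTAC6) one of -1.65 (SE 0.20). None of these overlapped between the genotypes. Of 5 nucleases that process plastid RNA 2 were called lower and 0 higher, which in so short a list is not set apart from the 24.4% and 23.6% of all genes, also with DESeq2 and limma-voom, and 2 had an unadjusted p under 0.05. PNPase (RIF10), which degrades and tails plastid RNA, was at 18, 14.1 and 12.8 scaled CPM in knu-2, against 41.2, 39.9 and 41.4 scaled CPM in Ler (log2 fold change -1.45, SE 0.20). The other was RNase E, with a log2 fold change of -0.49 (SE 0.16, adjusted p = 0.0262), while RNase J (0.41, adjusted p = 0.216) and CSP41A (0.36, adjusted p = 0.371) were not called. Whether these nuclear changes bear on the chloroplast counts was not tested.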

How the data were processed

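Per the labels' protocols, poly(A) RNA was captured with oligo-T beads, fragmented and copied with random hexamers, with no strand-marking step named. The authors deposited 1 whole-number count per gene and library without normalization, as judged from the values, with each gene's length in base pairs beside it. Aligner, counting tool, genome build and strandedness: not given in the sources used here. Therefore reads of overlapping or antisense genes cannot be told apart.

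Counts were analysed in R 4.3.3 with edgeR 4.0.16 (filterByExpr, TMM scaling, robust glmQLFit and glmQLFTest, genotype as the only term, all 6 libraries). P-values were adjusted by Benjamini-Hochberg over all 18422 genes tested, and every p of a single gene comes from this model unless another test is named. The SE of an edgeR fold change is its absolute log2 value divided by the square root of the F statistic. The 9233 genes left out held 0.0769% of counts. DESeq2 1.42.0, limma-voom (limma 3.58.1), other scalings, other filters (none, or an average of 1 CPM), a replicate block and leaving out each library were alternatives. Shares of counts were tested by exact two-sided permutation (scipy 1.17.1). On simulated data of 18292 genes, all given the same common dispersion, edgeR recovered 7% of 2-fold and 80% of 4-fold changes with 8 false calls. In the real data the spread differed between genes (median SE 0.87 for chloroplast genes and 0.27 over all genes). The recovered shares therefore check the method and do not give the power for these genes. No library was a copy of another: within a genotype, chi-square over degrees of freedom was 20.3 or more.

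Names by length were compared with 6 identifiers named in the reference's notes: 5 gave the same gene, and ATCG00430, with the length of ndhK, is called photosystem II reaction center protein G there. In the order of identifiers ATCG00430 stands between ndhJ and ndhC, where the reference has ndhK. Genes named with values were the 15 highest in counts per kb, up to 12 called genes with the smallest p, the 3 highest of each class and up to 4 of each nuclear list. Others were named after their values were seen (rpoA, ndhF). Not every gene that the rule names is given with its values, and a gene among them is not reported here. The genes and lists were chosen with earlier results of these data known. The p-values do not account for that choice. They cover variation among these cell collections, which may be technical, since the labels do not say whether the replicates came from separate plants.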

Additional observations from a re-analysis of the deposited data

How the results depend on the processing

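Chloroplast genes called higher (7) became 11 with library totals, 14 with DESeq2 and 1 with limma-voom, and 0 to 17 when 1 library was left out. Those called lower (1) became 2 with the replicate block, 0 with the chloroplast total as library size, and 1 to 5 when 1 library was left out. With the chloroplast total 3692 genes of the whole table were called. The labels do not say that replicate numbers pair the libraries. Deviations of same-numbered libraries correlated at -0.12, 0.10 and 0.05 over all genes tested, and at 0.30, 0.19 and 0.31 over the chloroplast genes tested. Over the chloroplast genes each library correlated best with its own number. Over all genes tested this did not hold: knu-2 replicate 1 correlated best with Ler replicate 2 (0.08) and knu-2 replicate 3 with Ler replicate 1 (0.13). Genes are not independent replicates, so any pairing is at most a weak hint from the data and not from the design. With the replicate block, 5 chloroplast genes were called higher: atpA, ATCG00730, psaB, psbB and ATCG00270. The calls of ATCG00020 (adjusted p = 0.0911), psbC (0.229), psbJ (0.136), ATCG00360 (0.0534) and ATCG00040 (0.0765) were then lost, and rps4 (0.0458) was called lower beside rpoB. Nuclear photosynthesis genes called higher (1) became 3 with the replicate block, 7 with library totals and 0 to 9 when 1 library was left out, and those called lower (0) became 1 with the replicate block and 0 to 3. Plastid transcription genes called higher (5) became 8 with library totals. Nucleases called higher (0) became 1 and those called lower (2) became 1 with library totals, and 1 to 2 when 1 library was left out. The chloroplast share of a library, knu-2 minus Ler, was -0.000649 to 0.0202 percentage points when 1 library was left out, the rps share -1.81 to 1.05 and the ycf share -5.58 to 2.1 points of the chloroplast counts. Per kb the pet difference was -0.615 and the rps difference 0.226 points. Signs turned in genes that were not called. With library totals the log2 fold change was 0.20 for rpoC2, 0.28 for atpE and 0.31 for psaJ. With the replicate block it was -0.51 for psbM, 0.32 for psaJ, -0.0702 for rps3, -0.20 for ATCG00810 and -0.25 for ycf1. With limma-voom it was -0.45 for psbM, 0.16 for psaJ, -0.095 for rps3, -0.17 for ATCG00810 and -0.22 for ycf1. With DESeq2 size factors it was -0.014 for psbM and -0.053 for ycf1, with DESeq2 -0.016 and -0.055, with the chloroplast total -0.14 and -0.0605, and with no filter -0.012 for ycf1. Leaving out 1 library gave -0.15 to 1.41 for ATCG00140, -0.34 to 0.0933 for rpoC2, -0.67 to 0.56 for psbM, -0.77 to 0.22 for atpE, -0.42 to 0.40 for atpB, -0.44 to 1.03 for petA, -0.59 to 0.40 for psaJ, -1.1 to 0.99 for ATCG00810 and -0.73 to 0.41 for ycf1. The cause of these changes was not tested. Over the single genes and settings reported 408 values kept their direction and call, 45 lost the call, 26 gained it and 37 turned sign. Chloroplast counts of 4214 to 11725 per library limit the precision of each gene.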
